A study of Homo sapiens with 10 samples.

Results

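The 8 arrays of sorted gastric cancer cells, of 10 arrays in all, carry the replicate letters a to d, and they are compared here as 4 arrays of letters a and b against 4 arrays of letters c and d. Each set holds 2 arrays of side population cells and 2 of non-side population cells, so the comparison is balanced over the sorted populations. The split into these sets was picked after the expression values of the same arrays had been seen. The set difference is therefore described with its standard error and carries no p-value. The 2 arrays of unsorted cells, also lettered a and b, appear only for reference.

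The study compared gene expression in side population, non-side population and unsorted cells of gastric cancer lines, on single-channel arrays that read total RNA. AGS and MKN 45 are established lines from human gastric carcinomas, grown in the same basal medium with different shares of fetal bovine serum. The origin label names both lines on every array, while the source label names AGS on all arrays except side population a and b, where it names no line. No drug, gene deletion or transgene is recorded for any group, the labels call each letter a replicate group without saying what it marks, and nothing says that the letters were separate cultures or sorts.

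A side population is the fraction of cells that pumps out a DNA-binding dye through ATP-binding cassette transporters, and in tumour cell lines it is studied as a candidate source of stem-like cells. Interferons are secreted alarm signals of virus infection that switch on a common block of antiviral genes through response elements in their promoters. Gastric carcinoma lines also keep parts of the programmes of stomach and intestinal epithelium, which include digestive enzymes, mucins and junction proteins.

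The deposited values are linear intensities of 54675 probe sets, scaled by the authors to a common trimmed mean, and median intensity ran from 58.7 to 85.4 between arrays. Differences below are means of log2(intensity + 6.1) in letters c and d minus letters a and b, for 1 probe set per gene and for the 9888 of 19775 genes whose mean was at or above the median gene, which corresponds to an intensity of 149. The ratio of 3' to 5' signal, which is raised by broken RNA, of the actin control probes was 3.34 on the array of side population a and 0.987 to 1.28 on the other arrays. The 5' control for 18S ribosomal RNA read 851 in side population d and 563 in non-side population c, both in the set of letters c and d, and 22182 to 33704 on the other sorted arrays. Both unsorted arrays were also low, at 275 and 828. The 5' control for 28S ribosomal RNA read 33911 in side d and 23739 in non-side c, within the 19512 to 40912 of the other sorted arrays. All 7 epithelial carcinoma markers passed the filter, and EPCAM, a surface protein of epithelial cells, read 18604 to 29017 in letters a and b and 17745 to 22846 in letters c and d. Of 6 blood markers 3 passed, LYZ (20247 to 21539 against 28302 to 32403, 0.56 ± 0.18, no overlap), CD79A (0.42) and HBB (-0.18), with a median of 0.42, and their part in the set difference was not tested. The pan-leukocyte gene PTPRC read 15.4 to 23.1 in letters a and b and 8.5 to 21.5 in letters c and d. None of 4 endothelial markers and 1 of 6 fibroblast markers passed.

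The first principal component of the 8 sorted arrays, with 44% of the variance, ordered them by set. Letters a and b lay at 5.6 (side a), -16.9 (side b), -26.5 (non-side a) and -49.9 (non-side b). Letters c and d lay at 8.7 (side c), 26.0 (side d), 37.4 (non-side c) and 15.6 (non-side d). The sets did not overlap on this component, but side a and side c were close neighbours across the gap. The second component, with 22.0%, set side a and b at -33.6 and -28.9 apart from the other arrays, which lay between -2.8 and 22.5. Correlations between arrays, taken over genes that are not independent of each other, were 0.95 to 0.978 within letters c and d. They were 0.916 to 0.966 within letters a and b and 0.883 to 0.955 between the sets.

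**Figure D1:**
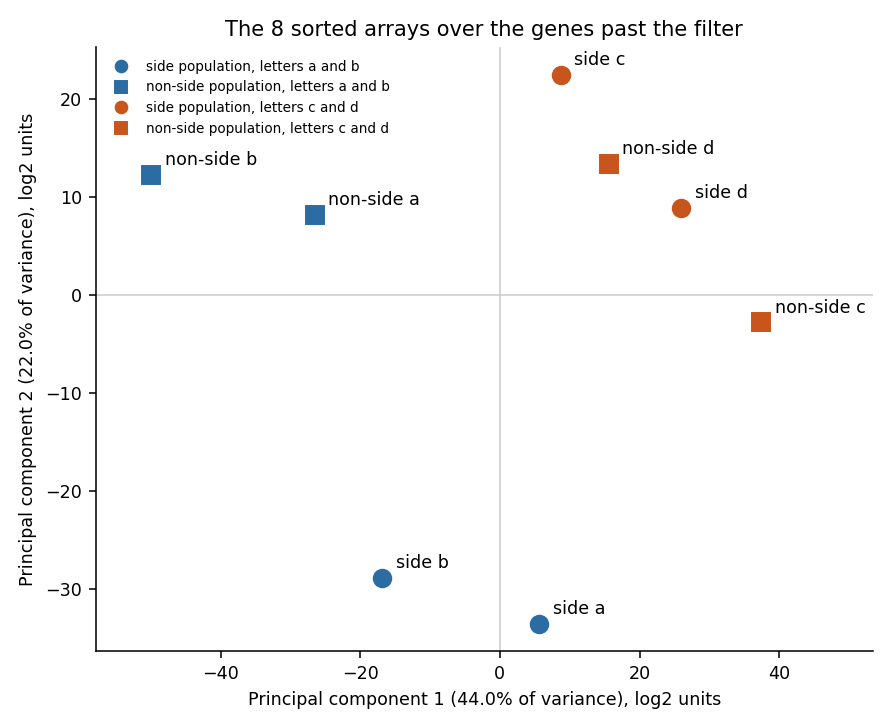
First against second principal component of the 8 sorted arrays (axes in log2 units, with the share of variance), circles for side and squares for non-side population arrays, blue for letters a and b and orange for letters c and d. Letters c and d lie between 8.7 and 37.4 on the first component and letters a and b between -49.9 and 5.6, while side a and b stand apart at the bottom of the second.

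Genes were counted where all 4 arrays of letters c and d lay on one side of all 4 of letters a and b and the mean difference was at least 1 log2 unit. There were 284 genes counted higher in letters c and d (2.87% of the genes examined) and 97 counted lower (0.981%), with median differences of 1.24 and -1.23. Without the demand on size, 823 genes were higher (8.32%) and 601 lower (6.08%) with no overlap. These shares are given as background, and nothing is read from them because the sets were picked on the same values. Of the counted genes, 52 higher ones averaged under the filter's limit in letters a and b and 17 lower ones averaged under it in letters c and d, so they passed the filter through the set where they were high. Without side a, where the control ratio was high, 438 genes were counted higher and 128 lower, and without both side arrays whose source label names no line 638 and 195. Without side d and non-side c, the sorted arrays of low 18S signal, 262 and 114 were counted. Near the size limit, MTMR1 (1.002) and DYNLT2 (1.003) were just inside and CCN2 (0.997) and DECR1 (0.999) just outside. On the lower side MYLIP (-1.003) and ARHGDIB (-1.022) were inside and PSTPIP2 (-0.996) and AP1S2 (-0.998) outside.

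The same split was then set out within each population, side a and b against side c and d and non-side a and b against non-side c and d, which share no array. Over all genes the median difference was -0.02 in the side population and 0.12 in the non-side population, and both differences had the same sign in 52.1% of genes. In the side population alone 368 genes were higher by the same rule (3.72%) and 201 lower (2.03%), and in the non-side population alone 853 were higher (8.63%) and 299 lower (3.02%). Of the 368 genes picked on side population arrays, 88.3% were also higher in letters c and d among the non-side arrays, against 56.8% of all genes, with a median difference of 0.81. Of the 853 picked on non-side arrays, 79.1% were higher among the side arrays, against 47.7% of all genes, with a median of 0.38. For the genes picked as lower, 69.2% (picked in the side population) and 82.9% (picked in the non-side population) were lower in the other one. The backgrounds differ here too, since 56.8% of all genes were higher among the non-side arrays and 47.7% among the side arrays. Both populations of a letter may come from 1 sort, which the labels do not settle, so these shares describe these arrays and carry no test.

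**Figure D2:**
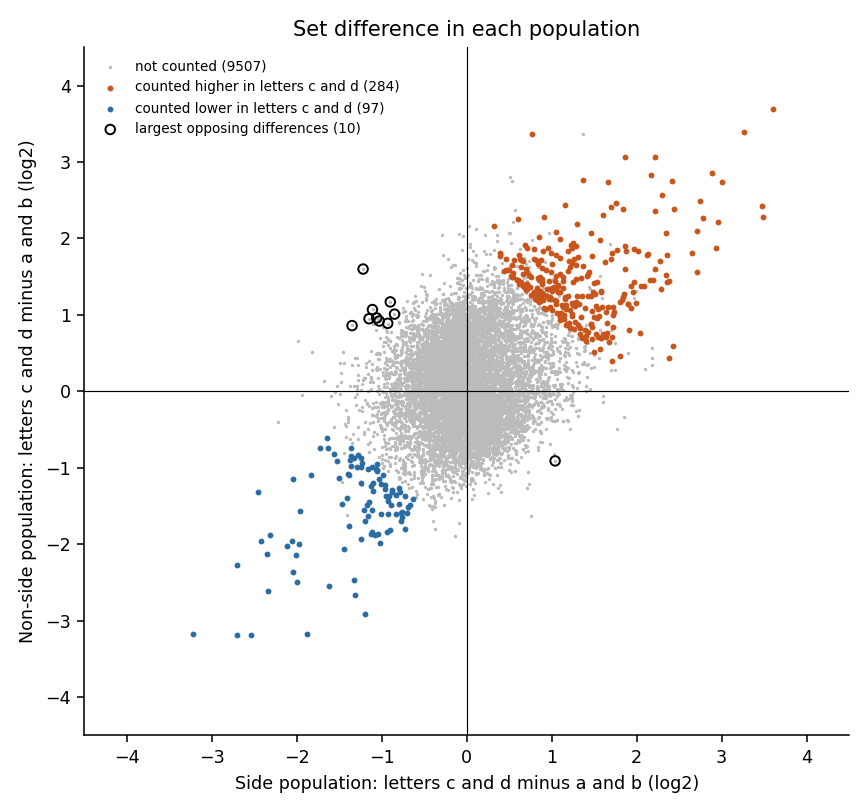
Set difference of each gene (letters c and d minus a and b, log2) in the side population (horizontal axis) against the non-side population (vertical axis), grey for genes not counted, orange for the 284 counted higher, blue for the 97 counted lower, open rings for the 10 largest opposing differences. The counted genes lie in the corners where both differences share a sign, as the rule for counting requires, and the cloud of other genes is centred near 0.

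Genes of the interferon response were the list with the largest median difference, and they were higher in letters c and d. Of 39 interferon-stimulated genes past the filter (45 measured), 37 had a positive difference. With no overlap 22 were higher, and 17 were counted higher, against 8.32% and 2.87% of all genes. None was counted or non-overlapping in the lower direction. The median difference of the list was 1.00, against 0.03 over all genes, and it was 1.06 in the side and 0.84 in the non-side population. With the arrays quantile normalised it was 0.95, and without side d and non-side c, the arrays of low 18S signal, it was 1.01.

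Promoters of 6 of the counted interferon genes are shown here because they hold the core of the interferon-stimulated response element, which was searched as GAAA, any 2 bases and GAAA, or on the other strand as TTTC, any 2 bases and TTTC. Each is a 90-base stretch from within the 250 bases before the gene's start in RefSeq (GRCh38.p14), 5' to 3' on the gene's strand, with the matches in capitals and runs of capitals beyond 10 letters marking overlapping matches.
IFIT5 (chr10:89414478-89414567, plus strand): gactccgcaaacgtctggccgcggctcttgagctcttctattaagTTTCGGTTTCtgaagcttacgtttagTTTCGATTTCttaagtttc
IFI44L (chr1:78620244-78620333, plus strand): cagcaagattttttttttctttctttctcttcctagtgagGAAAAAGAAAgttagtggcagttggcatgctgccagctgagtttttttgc
BST2 (chr19:17405711-17405800, minus strand): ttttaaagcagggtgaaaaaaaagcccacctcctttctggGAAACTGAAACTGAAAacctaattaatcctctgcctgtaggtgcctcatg
IFIT3 (chr10:89327801-89327890, plus strand): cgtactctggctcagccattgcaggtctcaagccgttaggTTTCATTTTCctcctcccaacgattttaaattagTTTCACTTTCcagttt
DDX60 (chr4:168318791-168318880, minus strand): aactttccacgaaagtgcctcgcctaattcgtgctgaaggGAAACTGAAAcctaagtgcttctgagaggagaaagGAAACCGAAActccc
IFIH1 (chr2:162318794-162318883, minus strand): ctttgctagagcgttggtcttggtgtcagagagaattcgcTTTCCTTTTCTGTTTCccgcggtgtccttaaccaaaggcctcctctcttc
On either strand the repeat was present in 839 of 27305 promoters (3.07%), in 196 of 8236 genes examined that had a promoter sequence (2.38%) and in 20 of 32 interferon-stimulated genes past the filter (62.5%). Among the 14 counted interferon genes with a sequence it was present in 8 (57.1%), and among the 18 not counted in 12 (66.7%). Of all counted genes with a sequence, 20 of 234 higher ones held it (8.55%) and 0 of 76 lower ones. Outside the interferon list, 12 of 220 higher genes held it (5.45%). The counted genes CMPK2, IFI35, OAS1, PARP9, RIGI and XAF1 had no match in this window.

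Values are given from here on in the order side a, side b, non-side a, non-side b for the first set and side c, side d, non-side c, non-side d for the second. XAF1, an interferon-induced promoter of apoptosis, read 150.0, 346, 144 and 382 in letters a and b and 2358, 1494, 1531 and 1680.3 in letters c and d, a difference of 2.87 ± 0.31 (log2, standard error). Unsorted cells read 90.4 and 88.7, below every sorted array. OAS2, one of the enzymes that make oligoadenylate messengers when they sense double-stranded RNA, read 339.5, 548, 156 and 341 against 1786, 2285, 2742 and 1436, a difference of 2.64 ± 0.30. In both genes the sets were widely separated in both populations, and within letters a and b the b arrays read above the a arrays of the same population.

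IFIT5, which binds foreign 5' ends of RNA and whose promoter above holds 2 matches, read 181, 212, 179 and 105 against 720.2, 717, 637 and 857 (2.11 ± 0.25). BST2, the tetherin that holds budding virus particles at the cell surface, read 944, 2440.4, 1503 and 3719.9 against 8943, 7094, 5447 and 7565 (1.91 ± 0.32). Both b arrays of BST2 were above both a arrays, and letters a and b spanned more among themselves than the gap from non-side b to the lowest array of letters c and d. IFI44L read 114, 425, 155 and 822 against 1115, 1071, 1491 and 938 (1.99 ± 0.42), with non-side b of the first set nearly reaching non-side d of the second. Unsorted cells read 189.6 and 131 for BST2 and 37.3 and 55.7 for IFI44L, below every sorted array in both genes.

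The cytosolic RNA sensors were higher in letters c and d as well. IFIH1, the sensor of long double-stranded RNA, read 639, 758, 443 and 586 against 1739, 1738, 1796 and 1678 (1.53 ± 0.22), and its 4 values in letters c and d were almost level. RIGI, the sensor of RNA with a 5' triphosphate, read 311 to 489 against 989 to 1312 (1.48 ± 0.22). DDX60, a helicase tied to both, read 1092 to 1676 against 3362 to 4894 (1.59 ± 0.22). Of the transcription factors, IRF7 (604 to 894 against 1649 to 1766, 1.24 ± 0.21) and IRF9 (1254 to 1910.0 against 2452 to 3094, 0.83 ± 0.21) did not overlap between the sets. IRF1 (703 to 1028 against 533 to 1092, -0.11 ± 0.24) overlapped fully.

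Other counted members were CMPK2 (1.91 ± 0.24), MX2 (1.80 ± 0.21), IFIT3 (1.63 ± 0.24), IFI35 (1.56 ± 0.23), SAMD9 (1.41 ± 0.26), PARP9 (1.28 ± 0.23), OAS1 (1.21 ± 0.24) and LGALS3BP (1.13 ± 0.24). Of the brightest members several overlapped between the sets. ISG15, the ubiquitin-like modifier, read 10825, 15295, 12675 and 19876 against 18642, 17724, 12552 and 23026 (0.30 ± 0.24), and IFITM3, which blocks virus entry, read 17438 to 26055 against 16299 to 27141 (0.11 ± 0.21). IFI6 read 7338, 11554, 9674 and 16033 against 17649, 5802, 3914 and 17034 (-0.24 ± 0.39), with side d and non-side c below every array of letters a and b and side c and non-side d above them. Those are the same 2 sorted arrays that read low for 18S ribosomal RNA, and the part of that in the IFI6 value was not tested.

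**Figure D3:**
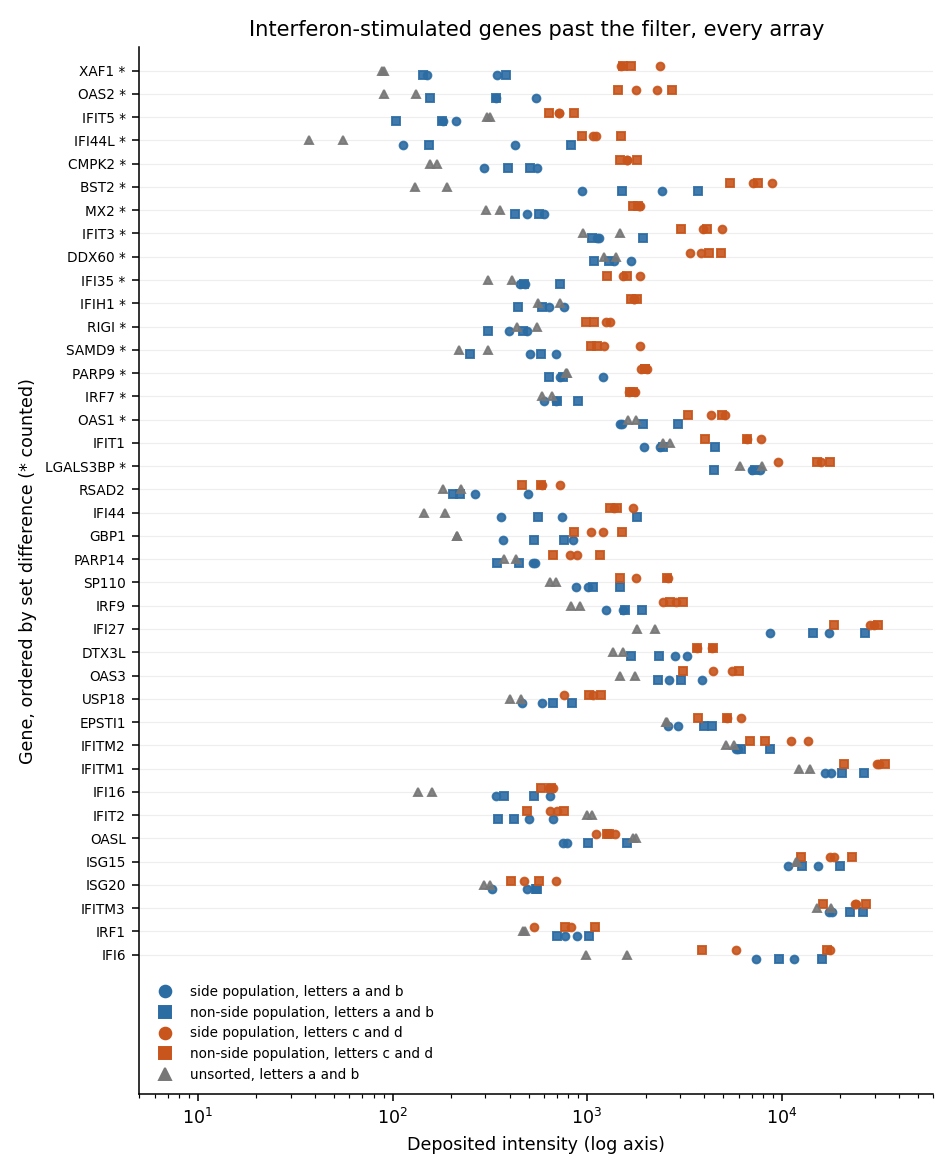
Deposited intensity (log axis) of the 39 interferon-stimulated genes past the filter on every array, circles for side and squares for non-side population, blue for letters a and b, orange for letters c and d and grey triangles for unsorted cells. Asterisks mark the 17 counted genes, where all orange symbols lie to the right of all blue ones with a difference of at least 1; at the bottom, from ISG15 to IFI6, the colours mix.

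Genes of antigen presentation by MHC class I, which interferon also induces, were separated less. Of 17 genes past the filter 14 had a positive difference, with a median of 0.34, and none was free of overlap. HLA-E read 4034 to 7255 against 6680.3 to 7469.5 (0.51 ± 0.21), and TAP1, a subunit of the peptide transporter, 806 to 1591 against 1546 to 1874 (0.57 ± 0.22). B2M, the invariant light chain, read 38901 to 45900.1 against 27335 to 41854 (-0.26 ± 0.19). HLA-B read 6117, 14134, 7781 and 24909 against 12870.2, 13762, 11783 and 13139.6, so that both a arrays were below letters c and d and both b arrays above them. The acute-phase list, of which 4 of 12 genes passed, had 3 genes higher with no overlap (8.32% of all genes). They were the fibrinogen chains FGG (395 to 1049 against 1385 to 2067, 1.36 ± 0.27) and FGA (0.77 ± 0.25) and the complement factor CFB (1.13 ± 0.25). Other probe sets of FGA (1 of 2) and CFB (1 of 1) had the opposite sign.

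The 20 genes with the largest positive difference are given here with their values, beginning with the largest. CLDN2, a claudin that makes tight junctions leaky to cations, read 391, 165, 375 and 181 in letters a and b and 3124, 3197, 4869.6 and 2432 in letters c and d, a difference of 3.65 ± 0.30. This was the largest of all 9888 genes, 3.60 in the side and 3.69 in the non-side population, and unsorted cells at 945 and 678 lay between the sets. VILL, a relative of the microvillus protein villin, read 233, 24.4, 294 and 23.1 against 737, 904, 1083 and 881 (3.33 ± 0.58). Both b arrays of VILL read under their array's median and both a arrays well above it, and with values under each array's median raised to it the difference was 2.61. VIL1, villin itself, read 3193 to 6419 against 4332 to 6324 (-0.02 ± 0.23) and overlapped.

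Single digestive and mucosal genes were higher in letters c and d, 2 of them among the upper 20. PGC, the precursor of a gastric pepsin, read 340.5, 402, 398 and 519 against 2328, 2868, 2743 and 1787 (2.53 ± 0.23). SPINK1, a trypsin inhibitor of secreting epithelia, read 289, 220.5, 283 and 291 against 1945, 1458, 1157 and 1336 (2.40 ± 0.23). MUC1, a membrane mucin, read 2669 to 5072 against 9282 to 11045 (1.56 ± 0.22). In PGC and SPINK1 the arrays of each set lay close together compared with the gap between the sets. LGALS4, a galectin of intestinal epithelium, read 2494, 621, 3262 and 810.0 against 6452, 5067, 4538 and 4418 (1.82 ± 0.40), and here letter b was far below letter a in both populations. CDH17, the liver-intestine cadherin, read 9569, 3782, 5148 and 2046 against 10589, 10886, 9119 and 11002 (1.23 ± 0.31), with side a reaching into the range of letters c and d.

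As deposited, neither the gastric nor the intestinal list went 1 way. Of 6 gastric genes past the filter (24 measured), PGC and MUC1 were counted higher, REG1A and SOX2 counted lower and TFF1 lower with no overlap. Of all genes 2.87% were counted higher, 0.981% counted lower and 6.08% lower with no overlap. REG1A, a growth factor of regenerating mucosa, read 699 to 1395 against 365 to 392 (-1.31 ± 0.23). SOX2, a transcription factor of stomach and pluripotent cells, read 343, 685, 486 and 1218 against 294, 261, 231 and 324 (-1.13 ± 0.31), and unsorted cells read 1136 and 973, near the highest array of letters a and b. TFF1, the gastric trefoil peptide, read 1286 to 2059.5 against 1079 to 1234 (-0.38 ± 0.22). Of 8 intestinal genes past the filter (19 measured) 6 had a positive difference. LGALS4 was the only one free of overlap, while 8.32% of all genes were higher with no overlap. The intestinal list's median was 0.17 in the side and 0.70 in the non-side population. After quantile normalisation all 8 were positive and 3 were higher with no overlap. Without side d and non-side c 6 were positive and 2 higher with no overlap.

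**Figure D4:**
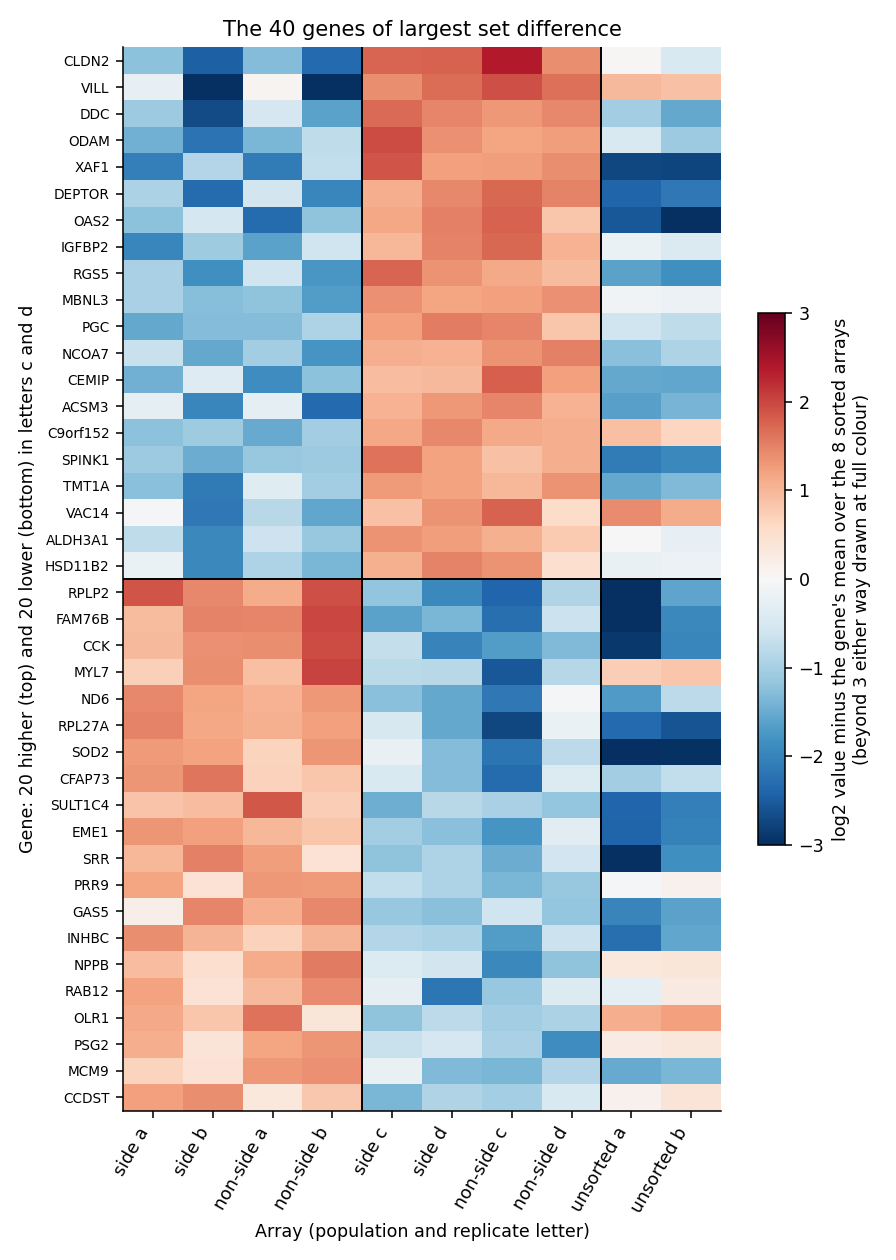
The 20 genes with the largest positive and the 20 with the largest negative set difference (rows) on every array (columns), coloured by log2 value minus the gene's mean over the 8 sorted arrays. Every row changes colour at the line between letters a and b (left block) and letters c and d (middle block), as the choice of genes requires; in the upper rows letter b is bluer than letter a in CLDN2, VILL, DEPTOR and ACSM3, and unsorted cells (right block) match neither set throughout.

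Enzymes of small-molecule metabolism were also among the upper 20. DDC, the decarboxylase that makes dopamine and serotonin, read 101, 29.8, 155 and 69 against 745, 626, 561 and 613 (2.95 ± 0.35). ALDH3A1, an aldehyde dehydrogenase, read 666, 291, 728 and 512 against 2864, 2716, 2381 and 1967 (2.23 ± 0.27). HSD11B2, which inactivates cortisol, read 53.5 to 192 against 316 to 634 (2.21 ± 0.34). Side b was the lowest array in each of these genes. ACSM3, a medium-chain acyl-CoA synthetase, read 202, 59.3, 201 and 44.6 against 519.6, 623, 696 and 522 (2.44 ± 0.39), and both b arrays were again the lowest. TMT1A, a thiol methyltransferase, differed by 2.40 ± 0.29, and AKR1B10, an aldo-keto reductase of the NRF2 list, by 1.14 ± 0.27. Of 15 genes of the NRF2 list 5 were positive and 10 negative, with a median of -0.21. With no overlap 1 was higher and 1 lower, against 8.32% and 6.08% of all genes.

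The other 9 of the upper 20 were of mixed kinds. DEPTOR, an inhibitor that binds the mTOR kinase, read 147, 53.6, 196 and 70.3 against 618, 790.2, 960.1 and 825 (2.87 ± 0.33), while unsorted cells at 49.5 and 60.4 were as low as the lowest sorted arrays. IGFBP2, a binding protein of insulin-like growth factors, read 632, 1177, 802 and 1626 against 4898, 6953, 8201 and 5066 (2.62 ± 0.27). RGS5, which shortens signalling by G proteins, read 344 to 824 against 2445 to 4234 (2.58 ± 0.28), and 3 of its 5 other probe sets were also higher with no overlap. NCOA7, a nuclear receptor coactivator, read 4263, 2355, 3314 and 1987 against 14415, 14031, 17245 and 19385 (2.50 ± 0.25), the brightest of the 20 probe sets. MBNL3, a regulator of splicing, read 1578, 1273, 1333 and 966 against 8103, 7053, 7250.3 and 8114 (2.58 ± 0.21) with the smallest standard error of these genes, shared with C9orf152 (2.41 ± 0.21). CEMIP, which breaks down hyaluronan, differed by 2.46 ± 0.30 and ODAM, a secreted protein first known from enamel, by 2.88 ± 0.29. VAC14, a scaffold of a lipid kinase complex, differed by 2.28 ± 0.38, and 1 of its 2 other probe sets had the opposite sign.

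Immediate early genes, which respond within minutes to growth factors and stress, were split as deposited. Of 31 past the filter 18 had a positive and 13 a negative difference. With no overlap 6 were higher and 2 lower, against 8.32% and 6.08% of all genes. Only FOSB was counted, while 2.87% of all genes were counted higher. After quantile normalisation 23 of the 31 were positive and 8 negative. With no overlap 4 were then higher and 0 lower, beside 755 and 715 of all 9888 genes. FOSB, a subunit of the AP-1 factor, read 4960.2, 3662, 2026 and 1794 against 7702, 8303, 12384 and 6954 (1.59 ± 0.28), and unsorted cells read 1106 and 1049. CCN2, a matricellular protein, read 5563 to 10466 against 13007 to 20134 (1.00 ± 0.22), and ZFP36, which destabilises inflammatory messages, 6202 to 14842 against 14945 to 21463 (0.97 ± 0.27). IER5 went the other way at 21793 to 27488 against 14947 to 19985 (-0.51 ± 0.19). CXCL3, a neutrophil chemokine of the NF-kB list, read 175, 181, 313 and 442 against 809, 597, 890.1 and 1067 (1.65 ± 0.24). CDKN1A, the cell cycle inhibitor of the p53 list, read 4147, 2966, 2492 and 1859.9 against 4163, 6315, 6210.5 and 5916 (1.02 ± 0.25), with side a and side c almost equal. Neither of these lists went 1 way. Of 18 NF-kB genes 12 were positive and 6 negative, with 2 higher and 2 lower with no overlap. Of 24 p53 genes 10 were positive and 14 negative, with 1 higher and 2 lower with no overlap.

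Several of the 20 genes with the largest negative difference were represented by a dim probe set although a bright one reads the same gene. RPLP2, a protein of the ribosomal stalk, read 1682, 1234, 978 and 1718 in letters a and b and 195, 114, 80.7 and 235 in letters c and d, a difference of -3.20 ± 0.31. A brighter probe set, left out because its annotation also names a small nucleolar RNA, read 48237, 42940.4, 46878 and 45602 against 36908, 44738, 29261 and 48545, a difference of -0.23 with overlap. For RPL27A the values were 5729, 4513, 4219 and 4789 against 1448, 689.5, 301 and 1756 (-2.48 ± 0.38), with -1.58 when side d and non-side c, the arrays of low 18S signal, were left out. For RPL27A a brighter shared probe set read 46139 to 53926 against 27519.6 to 49944 (-0.43, with overlap). The large differences of these ribosomal genes are those of the dim probe sets only.

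SOD2, the mitochondrial superoxide dismutase, also gave different values by probe set. Its own probe set read 3054, 2865, 1999.9 and 3142 against 1063, 506, 267 and 723 (-2.25 ± 0.30), while 4 probe sets shared with an overlapping transcript differed by -0.27, -0.35, -0.37 and 0.86, the last of them higher in letters c and d with no overlap. GAS5, a noncoding RNA that hosts small nucleolar RNAs, read 341, 843, 646 and 830.2 against 133, 123, 196 and 132 (-2.08 ± 0.28). Of its 4 shared probe sets, one (5879 to 10574 against 1886 to 3483, -1.59) and a further one (-1.12) were also lower with no overlap, and the other pair differed by -0.28 and -0.29 with overlap. ND6, the mitochondrial gene on the strand opposite to most others, read 3753, 3181, 2889 and 3416 against 581, 474, 307 and 1355 (-2.49 ± 0.33). In RPLP2, RPL27A, SOD2 and ND6 non-side c was the lowest sorted array, and over all 97 lower genes it was the lowest of its set in 44.

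The lower genes also included the hormone genes CCK and NPPB. CCK, the gut hormone cholecystokinin, read 617, 818, 833 and 1227 against 186, 73.1, 93.1 and 119.9 (-2.86 ± 0.30), and unsorted cells at 36.3 and 75.8 lay below and just above the lowest array of letters c and d. NPPB, the precursor of a natriuretic peptide, read 954, 718, 1097 and 1477 against 373, 339.8, 126 and 213 (-2.06 ± 0.31). INHBC, a subunit of activin, read 2356 to 3820.4 against 452 to 919 (-2.07 ± 0.24). PSG2, a pregnancy-specific glycoprotein of the CEA family, differed by -1.99 ± 0.32. TGFBI, a matrix protein induced by TGF-beta, read 241 to 507 against 109 to 161 (-1.33 ± 0.26). OLR1, a receptor for oxidised lipoprotein, read 3929.6, 3229.5, 5597 and 2326 against 771, 1046, 873 and 928 (-1.99 ± 0.26), and unsorted cells at 3861 and 4252 were within the range of letters a and b.

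The remaining named genes on the lower side were of mixed kinds. MYL7, an atrial myosin light chain, read 811, 1296, 922 and 2019 against 277, 271, 79.3 and 266 (-2.52 ± 0.36), with non-side c far below the other arrays of its set. SULT1C4, a sulfotransferase, read 1489.5 to 3272 against 321 to 500.1 (-2.20 ± 0.26), and EME1, part of a DNA repair nuclease, 4933 to 6887 against 801 to 2209 (-2.19 ± 0.27). SRR, which makes D-serine, differed by -2.10 ± 0.27 and 2 of its 3 other probe sets were lower with no overlap. The others were FAM76B (-2.95 ± 0.30), CFAP73 (-2.24 ± 0.34), PRR9 (-2.09 ± 0.25), the small GTPase RAB12 (-2.01 ± 0.34), the helicase MCM9 (-1.90 ± 0.30) and CCDST (-1.89 ± 0.27). Other probe sets of FAM76B (1 of 3) and MCM9 (1 of 2) had the opposite sign.

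Most listed genes of DNA replication and division read lower in letters c and d, by small amounts. Of 45 genes of G1/S and replication 40 had a negative difference. With no overlap 11 were lower and none higher, against 6.08% and 8.32% of all genes. The list's median was -0.31 (-0.40 in the side and -0.29 in the non-side population). CDC6, which loads the replicative helicase, was the only one counted, at 2588, 3156, 2913 and 2451 against 1144, 1481, 1191 and 1066 (-1.19 ± 0.21). UHRF1, which maintains DNA methylation, read 3224 to 6974 against 2030.2 to 2614 (-0.93 ± 0.24), CCNE1, the G1/S cyclin E, 2222 to 3468 against 1485 to 1698 (-0.71 ± 0.21), and RRM1, a subunit of ribonucleotide reductase, 7565 to 11812 against 5592 to 6929.6 (-0.68 ± 0.21). Of 49 genes of G2/M and mitosis 40 were negative and 6 lower with no overlap, against 6.08% of all genes. Among the 6 were CDC20 (5941 to 7759.7 against 3581 to 5132, -0.75 ± 0.21), an activator of the anaphase complex, and NEK2 (-0.80 ± 0.22), a centrosome kinase. The median of the G2/M list was -0.28, and it was -0.56 in the side and -0.18 in the non-side population. Without side d and non-side c it was -0.16, and in the mean log2 value of the list non-side d at 11.59 was not below non-side a at 11.46 and non-side b at 11.58. Unsorted cells read 1207 and 1567 for CDC6 and 5482 and 5223 for CDC20, near letters c and d for the first and between the sets for the second.

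Several chaperones of the endoplasmic reticulum and cytosol were lower in letters c and d with no overlap. In the list of amino acid and ER stress, 19 of 27 genes were negative (15 after quantile normalisation). With no overlap 6 were lower, against 6.08% of all genes. NUPR1, a stress-induced nuclear protein, had the largest positive value of the list at 1.65 ± 0.49, with overlap. DNAJB9, a cofactor of the chaperone BiP, read 3360.5, 5512, 3255 and 4834 against 2114, 2171, 1587 and 1847 (-1.11 ± 0.23) and was the only one counted. CRELD2 (13915, 15429, 12363 and 19271 against 7846, 7530.5, 6858 and 9734, -0.92 ± 0.21) and MANF (12389 to 16942 against 4984 to 8696, -0.95 ± 0.22), both secreted under ER stress, and DNAJC3 (3563 to 5072 against 2158 to 2265, -0.97 ± 0.21), a kinase inhibitor and chaperone of the same compartment, were also free of overlap. The last of the 6 were HERPUD1 (-0.68 ± 0.19), a membrane protein of ER-associated degradation, and the transcription factor CEBPB (-0.30 ± 0.21). Of 17 heat shock genes 15 were negative and 5 lower with no overlap (6.08% of all genes), with a median of -0.37. Under quantile normalisation the median was -0.11 and 1 of the 17 was lower with no overlap. Without side d and non-side c the median was -0.23. STIP1, which links HSP70 to HSP90, read 4542, 6162, 7083 and 11844 against 2582, 3777, 4381 and 3703 (-0.97 ± 0.23), and 1 other probe set of it had the opposite sign.

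Of 46 spliceosome and SR protein genes 40 were negative with a median of -0.20, and 37 with a median of -0.12 after quantile normalisation. With no overlap 5 were lower, against 6.08% of all genes. The kinases CLK1 (1200.1 to 2891 against 428 to 1027, -1.22 ± 0.31) and CLK4 (624 to 1846 against 454 to 594, -1.09 ± 0.30) were counted lower, as were 0.981% of all genes. Both b arrays exceeded both a arrays in CLK1 and CLK4. All 8 keratins past the filter were negative, with a median of -0.46. Of 53 cytosolic ribosomal protein genes 52 were negative as deposited with a median of -0.29, but 27 were negative with a median of 0.0 after quantile normalisation. No direction is therefore given for that family.

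For the mitochondrial and proteasome lists the set difference was not alike in the sorted populations. Oxidative phosphorylation genes (68) had a median of 0.29 in the side and -0.41 in the non-side population, and mitochondrial ribosomal proteins (75) of 0.15 and -0.67. The combined median of the respiratory list was -0.07, and it turned to 0.07 under quantile normalisation and to 0.13 without side d and non-side c. Proteasome subunits (29) had medians of -0.09 and -0.83, with 28 of 29 negative over both populations. Without those 2 arrays the combined median of the mitochondrial ribosomal list went from -0.23 to -0.04 and that of the proteasome from -0.42 to -0.22. Non-side c, one of them, had the lowest mean log2 value in all 3 lists, 12.78 for the respiratory genes against 13.28 in non-side a, 13.48 in non-side b and 13.34 in non-side d. The difference between the populations was not tested. NDUFA1, a subunit of complex I, was higher on all arrays of letters c and d, at 9441, 8801, 11635 and 12852 against 29967, 27419, 20334 and 25485 (1.27 ± 0.21), as was ATP5F1D of the ATP synthase at 2102 to 2918 against 4294 to 5794 (1.01 ± 0.21).

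**Figure D5:**
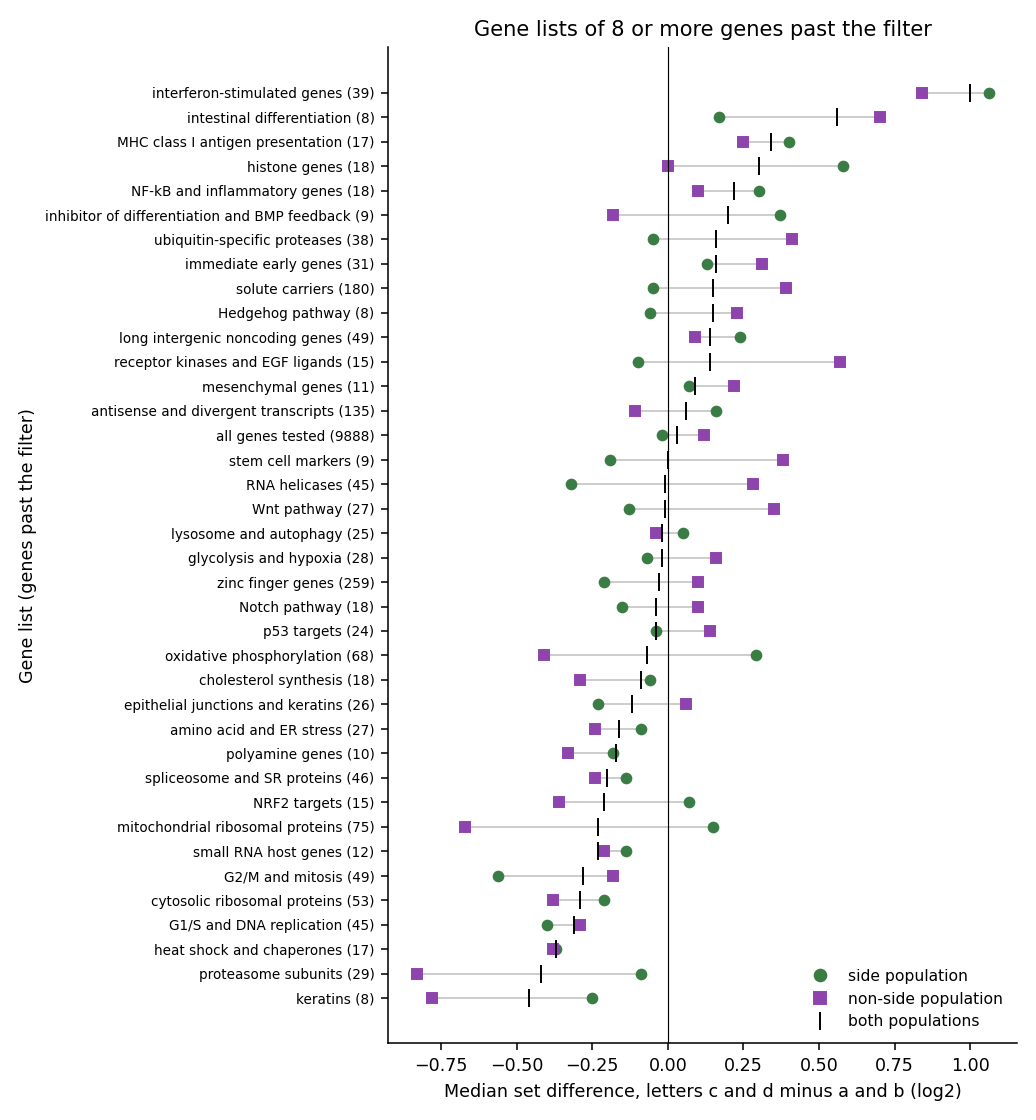
Median set difference (letters c and d minus a and b, log2) of every list with at least 8 genes past the filter, green circles for the side population, purple squares for the non-side population and black ticks for both together, with the number of genes in brackets. Interferon-stimulated genes lie at 1.06 and 0.84, far to the right of all genes at -0.02 and 0.12, while the mitochondrial and proteasome lists show wide gaps between circle and square.

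Transporters of dye efflux, the basis of the sort, were examined because the populations are equally represented in both sets. ABCG2, the main dye pump of side population cells, did not pass the filter and read 76.2, 24.1, 82.3 and 16.7 in letters a and b and 239, 158, 118 and 172 in letters c and d, with unsorted cells at 105 and 85.5. The sets did not overlap, the difference was 1.87 ± 0.47, 2.01 in the side and 1.72 in the non-side population, and with values under the array median raised to it the difference was 1.06. ABCC3, an exporter of organic anions, read 812, 669, 703 and 327 against 1458, 859.7, 2262 and 2345 (1.42 ± 0.32) and was the only counted gene of the 5 transporters past the filter. ABCC1 (1246 to 2369 against 1938 to 2645, 0.46 ± 0.23) and ABCC4 (1332 to 1579 against 1460.4 to 1740.1, 0.08 ± 0.20) overlapped, and ABCB1 read 7.9 to 37.1 against 8 to 40.7.

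Stem cell markers went both ways, with 4 of 9 positive and 5 negative. CD44, a hyaluronan receptor, read 775, 793, 933 and 765 against 1523, 1643, 1181 and 1489.8 (0.83 ± 0.21), and 2 of its 12 other probe sets had the opposite sign. LGR5, the R-spondin receptor of gut stem cells, read 3826 to 5706 against 6328 to 7907 (0.58 ± 0.20). NES, the intermediate filament nestin, was lower at 3519 to 4309 against 2312 to 2668 (-0.67 ± 0.20), as was the RNA-binding protein MSI2 at 2730.2 to 3786 against 1500.3 to 2083 (-0.69 ± 0.21). ALDH1A1, under the filter, read 15, 2.5, 68.7 and 27.2 against 93.9, 72.7, 102 and 85.6. All arrays of letters a and b were under their array's median there, and with values under the median raised to it the difference was 0.24. PROM1 (4.9 to 54 against 0.8 to 35.3) and MSI1 (6.4 to 24.1 against 4.2 to 22) averaged under the array median in both sets.

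Genes of developmental pathways tied to stem-like cells were read next. FZD7, a Wnt receptor, read 3872, 4264, 2462 and 2028 against 2966, 2616, 3121 and 1901 (-0.21 ± 0.23), HEY1, a Notch target, 220.1 to 415 against 296 to 428 (0.12 ± 0.26), and ADAM17, the sheddase of many surface proteins, 1724 to 2084 against 1342 to 1856 (-0.23 ± 0.21). All 3 overlapped. SMO, the transducer of Hedgehog signals, did not pass the filter and read 179, 211, 132 and 204 against 117, 125, 122 and 86.3 (-0.65 ± 0.30) with no overlap. Of 27 Wnt genes past the filter 12 were positive and 15 negative, and LRP5, a Wnt coreceptor, was counted higher at 552, 364, 350.0 and 216 against 587, 834, 1281 and 659.9 (1.18 ± 0.30), with 1 other probe set of the opposite sign. The other Wnt genes higher with no overlap were FZD3 (0.94 ± 0.27), a receptor, SP5 (0.87 ± 0.29), a target, and LGR5, given above. Of 18 Notch genes 1 was free of overlap (NCSTN, a subunit of gamma-secretase, 0.91 ± 0.25). Of 8 Hedgehog genes 3 were higher and 1 lower with no overlap. Beside the Wnt, Notch and Hedgehog counts, 8.32% of all genes were higher and 6.08% lower with no overlap.

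Since the labels name 2 lines, genes linked to MKN 45 were read on every array. MET, the receptor amplified in that line, read 3875, 2232, 2319 and 1334 against 3722, 2586, 3346 and 2842 (0.44 ± 0.26), with unsorted cells at 1269.5 and 1218. CEACAM5 read 3072, 1603, 2912 and 1189.6 against 2080.5, 2340.0, 3374 and 3180.1 (0.40 ± 0.29), with unsorted cells at 339.6 and 477, under every sorted array. The 5 measured genes of the list had a median of 0.40, with 0.08 in the side and 0.81 in the non-side population. Of these genes 4 were positive, and the largest difference was that of CDH17, given above (1.23). None was free of overlap, while 8.32% of all genes were higher and 6.08% lower with no overlap. In MET and CEACAM5 both a arrays of letters a and b lay above both b arrays. Side a, whose source label names no line, lay within or near the range of letters c and d. Side b, whose source label also names no line, lay below every array of letters c and d in both genes. The part of the cell line in the set difference was not tested, and for side a and b it cannot be told apart from the population and the letter.

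The unsorted arrays matched neither set. Their mean was nearer to letters a and b in 156 of the 284 higher genes (54.9%) and in 35 of the 97 lower genes (36.1%), against 46.7% of all genes. Among the higher genes the unsorted arrays lay below all of letters a and b in 17 and above all of letters c and d in 15. Among the lower genes they lay above letters a and b in 4 and below letters c and d in 18. The first set was itself divided. Both a arrays lay above both b arrays in 107 of the higher genes (37.7%), against 16.4% of all genes. Both b arrays lay above both a arrays in 18 (6.34%), against 10.9% of all genes. Over all genes the median gap between letters was 0.24 for a and b and 0.16 for c and d. These gaps were averaged over the populations before their sign was dropped. Opposite gaps therefore cancel, and the values do not rank the sets by spread.

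Large opposite set differences in the populations were few, although the signs differed in many genes. With at least 1 log2 unit and no overlap in each, 2 genes (0.0202%) were lower in letters c and d in the side and higher in the non-side population, and 0 (0.0%) the reverse. ARF1, a small GTPase of Golgi transport, read 873, 740.1, 262 and 418 against 217, 538, 1159 and 896, which gives -1.22 in the side and 1.60 in the non-side population. PABPC1L, a poly(A)-binding protein, read 4389, 1634, 2114 and 1387 against 1027, 1501, 3688 and 3539.7 (-1.11 and 1.07). CCNL2, a cyclin of splicing bodies, gave -1.15 and 0.95. CARHSP1, an RNA-binding phosphoprotein, gave 1.04 and -0.91 and was the only one of the 10 largest that was higher in letters c and d in the side population. These rest on 2 arrays against 2 in each population, and no test of the difference was made.

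Other probe sets of the counted genes give a further reading of the same RNA. Of 385 other probe sets of 180 higher genes, 81.6% had the same sign and 30.9% were also higher with no overlap, against 52.6% and 4.84% of all second probe sets. Of 137 other probe sets of 64 lower genes, 72.3% had the same sign and 21.2% were lower with no overlap, against 47.4% and 4.39%. These probe sets were read on the same arrays, so they bear on the probe and not on the sample.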

How the data were processed

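Total RNA of sorted and unsorted gastric cancer cells was read on 10 single-channel arrays. The deposited intensities are linear values from GCOS 1.4, the array software named in the submitters' processing notes. The values themselves show that the authors scaled them, since the 2% trimmed mean of the deposited intensity lay between 500.065 and 500.095 on every array. The number of arrays limits the precision.

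Of 54675 probe sets, 41091 carried 1 gene symbol in the platform annotation and were used, while 1801 with several symbols and 11777 with none were left out, as were control probe sets. The annotation can be old, and 41037 of the used probe sets matched a current RefSeq gene. Each gene was represented by its brightest probe set on the log2 scale, log2 was taken after adding 6.1 (the 10th percentile of all intensities), and genes under the median of mean log2 over the 10 arrays were left out. Set differences and their standard errors came from limma 3.58.1 in R 4.3.3 with set and sorted population as terms. The fit was tested on simulated data. No p-value is given, because the sets were picked on these arrays.

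The members, the gene lists and the rules were chosen with earlier results of these data known. Genes were named as the 20 of largest difference counted in each direction, up to 4 per list by difference over standard error, the 10 largest opposing differences and 7 fixed genes. Other list members were named after their values were seen. Arrays with the same letter were checked for shared deviations: the gaps between letters in side and non-side arrays correlated at 0.469 over genes for a and b and at -0.379 for c and d, so the letters were not taken as pairs. Alternatives changed the added constant, the filter, the scaling, the choice of probe set, low values, the population, the arrays entered and the pairing. Samples of a letter are only called replicate groups, so errors measure the spread between these arrays, which may be technical.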

Additional observations from a re-analysis of the deposited data

Results flagged for a closer look

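In 8 of 174 groups of 4 arrays, the gap from 1 array to its nearest neighbour was a larger part of the group's range than Dixon's critical value, and chance alone marks about 1 group in 20. SPINK1 at 220.5 and PRR9 at 919.9 were distant in side b among letters a and b. MYL7 at 79.3 and GAS5 at 196.2 were distant in non-side c among letters c and d. Of mean log2 values over gene lists, heat shock genes at 12.4 and inhibitors of differentiation at 10.84 were distant in non-side c, lysosome and autophagy genes at 11.15 in side d, and keratins at 11.37 in side b.

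The set difference had opposite directions in the sorted populations for 6 lists, with all side arrays moving one way and all non-side arrays the other. For single genes only the 10 largest such differences are given. That number was a limit set beforehand and does not count the genes that met the rule. The difference between populations was not tested. In the side population the mean over the list was lower in letters c and d by the following log2 differences, and in the non-side population it was higher. These were -0.09 for stem cell markers, -0.12 for transporters of dye efflux and -0.16 for Wnt genes. They were -0.22 for glucose-regulated arrestins, -0.21 for RNA helicases and -0.14 for ubiquitin-specific proteases. For the 5 transporters the side population median was 0.05, unlike the mean, and ABCG2, under the filter, entered neither. Among single genes the side population differences were -1.22 for ARF1, -1.11 for PABPC1L, -1.06 for PYCARD-AS1, -1.15 for CCNL2 and -1.03 for ZNF324. They were 1.04 for CARHSP1, -0.90 for ZNF551, -0.93 for POLG, -1.35 for MIR570HG and -0.85 for GIPR, and each had the opposite sign in the non-side population.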

How the results depend on the processing

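The counts of genes depended most on the filter, the probe sets and the arrays entered. Against 284 higher and 97 lower genes, no filter gave 451 and 275, a filter at the 75th percentile 88 and 35, and every probe set on its own 692 and 359. The side population alone gave 368 and 201, the non-side population alone 853 and 299, and only the arrays whose source label names AGS 638 and 195, which enter fewer arrays and so make an absence of overlap easier. Leaving out 1 array at a time gave 270 to 438 higher genes, with the most without side a, and 86 to 130 lower genes. Constants of 1 and 50, quantile normalisation, the brightest probe set, low values raised to the array median and leaving out side d and non-side c, the last chosen after seeing the data, stayed within 1.5 times of both counts. Under quantile normalisation 215 of 224 higher and 89 of 113 lower genes were among those counted as deposited. All 40 named genes kept their direction over 731 values, of which 20 moved by more than the spread. They were chosen for having no overlap between the sets, so settings that only left out arrays could not reverse them. Of 47 list medians, 27 changed sign in at least 1 setting. With the letter as a replicate block the median standard error of the set difference was 0.2 in place of 0.24, and 0.235 with the letters c and d crossed. This crossed pairing was added after seeing the data.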

Other observations

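Further gene groups were also read. Of 18 histone genes past the filter 14 were higher in letters c and d. With no overlap 3 were higher, against 8.32% of all genes. The list's median was 0.58 in the side and 0.00 in the non-side population. Of 180 solute carrier genes 122 were positive, 17 were higher and 7 lower with no overlap, against 8.32% and 6.08% of all genes, and the median was -0.05 in the side and 0.39 in the non-side population. The lysosome list was divided, with CTSD, the protease cathepsin D, at 488 to 951 in letters a and b and 1129.9 to 2086 in letters c and d (1.16 ± 0.26) and NEU1, a sialidase, at 342 to 679 against 213 to 296 (-1.08 ± 0.24).

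Genes of glycolysis and hypoxia went both ways with 14 positive and 14 negative. PDK1, the kinase that shuts pyruvate out of mitochondria, read 177 to 546 against 589 to 1053 (1.08 ± 0.30), and LDHA, lactate dehydrogenase, read 27134 to 36944 against 14947 to 22328 (-0.61 ± 0.20). Both had no overlap. In polyamine synthesis ODC1, the first enzyme, read 22971 to 29864 against 14022 to 22251 (-0.59 ± 0.20) and SMS, spermine synthase, differed by -0.60 ± 0.20, with 8 of 10 genes negative as deposited and 5 of 10 after quantile normalisation.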
